A study of Homo sapiens with 4 samples.

Results

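The genes described here are 28 human genes of cholesterol and fatty acid synthesis, chosen by symbol from the 56271 rows of a gene count table. They fall into 17 enzymes of sterol synthesis, 5 regulators and transport genes of the sterol pathway, and 6 fatty acid genes. All 28 symbols were found in the table. The table holds poly-A RNA sequencing of SKBR3 cells, a HER2-positive line established from breast cancer. Of the 4 libraries, 2 came from cells transduced with eGFP alone (eGFP control) and 2 from cells transduced with HA-tagged full-length VIRMA joined to eGFP through a p2A peptide (VIRMA-overexpressing). VIRMA is a scaffold of the complex that writes N6-methyladenosine on RNA, and the comparison asks which transcripts differ when it is raised. Both groups carried the FUW lentiviral vector, in which the human ubiquitin C promoter drives the insert, and both were sorted for eGFP and expanded as populations. The methods call the libraries biological duplicates and do not say how the cultures were separated, so p-values measure the spread between these libraries. The growth and treatment text on all 4 labels is that of a hypoxia experiment ending in protein extraction, whereas the study treats the sequenced cells as ordinary cultures, so the oxygen level is uncertain.

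Cells build cholesterol from acetyl-CoA through the mevalonate pathway, which runs through isoprenoid units and squalene to lanosterol and then through a series of sterol intermediates. The SREBP transcription factors drive these enzymes and, in part, those of fatty acid synthesis. When membrane sterols are low, SCAP escorts SREBPs from the endoplasmic reticulum to the Golgi, where they are cut and released to the nucleus, and when sterols are plentiful INSIG proteins hold SCAP back. HER2-positive breast cancer cells are known for a high output of fatty acid synthase.

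The libraries held 81446932 to 86375474 counts. VIRMA, listed under its older symbol KIAA1429, had 8.54 and 8.15 CPM (counts scaled by library size and TMM factor) in the control libraries against 40.1 and 41.4 CPM in the VIRMA-overexpressing libraries, a log2 fold change of 2.29 (SE 0.0685, adjusted p 9.74e-26, edgeR). The insert carries the VIRMA coding sequence, so RNA of the insert and of the endogenous gene cannot be told apart in this value. Of 8 luminal epithelial markers, 7 were expressed in every library, and the 8 together summed to 16500 to 19300 CPM. The exception was CDH1, with 5 to 33 counts a library. Summed markers reached at most 4.63 CPM for 6 adipocyte genes, 1.84 CPM for 5 hepatocyte genes, 3.22 CPM for 5 leukocyte genes and 13.7 CPM for 6 fibroblast genes, the last almost all COL1A1. CIDEC had 0 counts in all 4 libraries. The luminal sum was 19300 and 19000 CPM in the eGFP control libraries and 16500 and 16700 CPM in the VIRMA-overexpressing libraries. The single luminal markers moved both ways. KRT8, KRT19 and EPCAM were lower, with log2 fold changes of -0.51, -0.12 and -0.39. KRT18, GRB7 and GRHL2 were higher, at 0.075, 0.43 and 0.51, and TFAP2A stood at 0.05 (edgeR adjusted p 0.192). The 6 erythroid markers summed to 28 and 20.2 CPM against 0.479 and 0.323 CPM, with HBB at 0 counts in both VIRMA-overexpressing libraries. The part of these marker differences in the results below was not tested.

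Most of the lipid synthesis genes were lower in VIRMA-overexpressing cells. Of the 28 genes, 26 passed the filter on low values (RPKM, the count per library size and per exonic length, above 1 in at least 2 libraries), and CYP51A1 and SC5D did not. At an edgeR adjusted p below 0.05, 21 of the 26 were lower (80.8%), 1 was higher and 4 did not pass. Over all 12205 tested genes, 35.9% were lower and 35.1% higher by the same call. With the added requirement of a change beyond 2-fold (log2 fold change below -1 or above 1), 5 genes were lower, namely INSIG1, EBP, DHCR7, FASN and FDFT1, and none was higher, beside 2.93% lower and 4.52% higher of all tested genes. In 22 of the 26, both VIRMA-overexpressing libraries lay below both controls, beside 41.6% of all tested genes. The median log2 fold change of the 26 was -0.57, and that of all tested genes was 0.012. In RNA from bulk cells, fewer cells with a transcript and less of it per cell cannot be told apart.

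The medians of the 3 groups were all below that of all genes. The 6 fatty acid genes all fell, with a median log2 fold change of -0.815 and a range of -1.11 to -0.54. Of the 15 tested sterol enzymes, 12 fell and 1 rose, with a median of -0.576. Of the 5 regulators and transport genes, 3 fell and none rose, with a median of -0.314. Sterol enzymes, regulators and transport genes together had a median of -0.518 over 20 tested genes and spanned -2.16 to 0.59, a range that encloses that of the fatty acid genes. The difference between the medians was not tested.

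**Figure D1:**
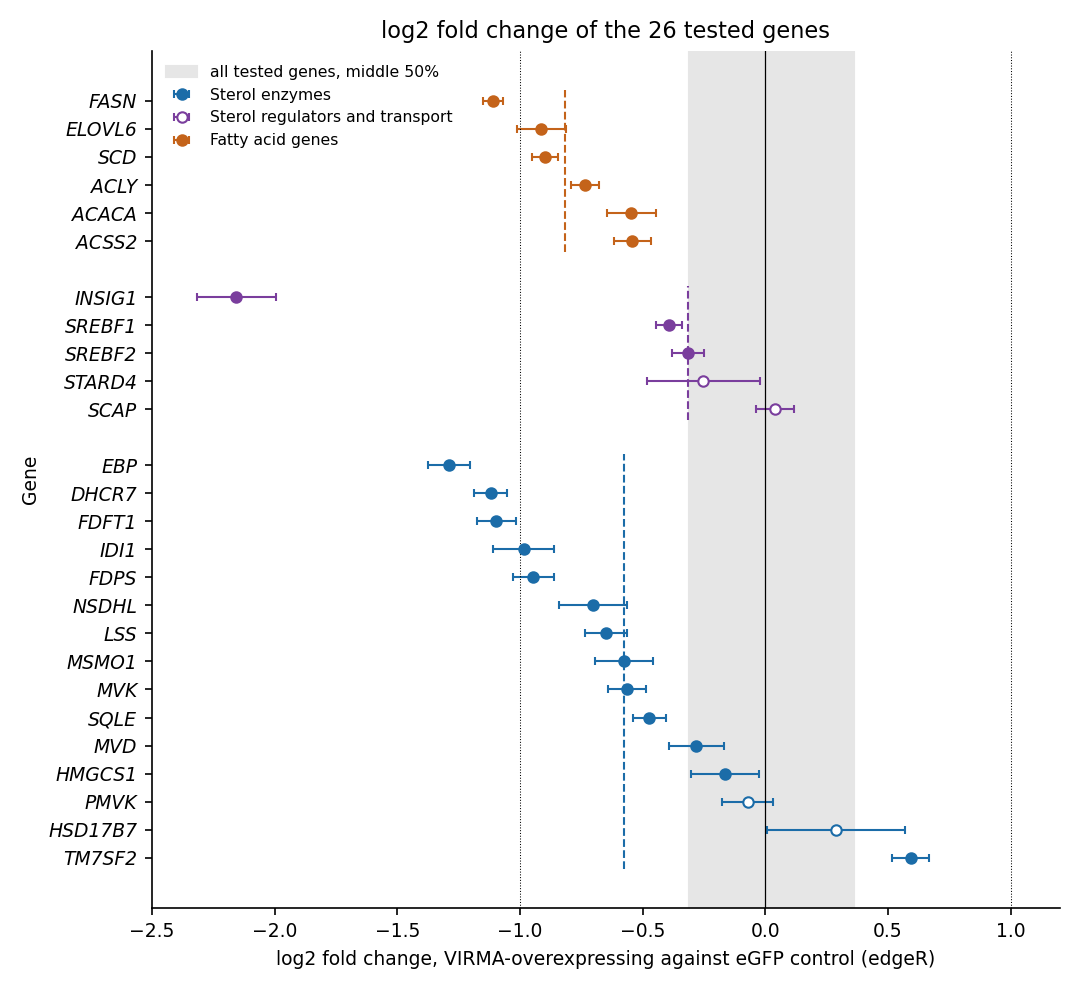
log2 fold change of VIRMA-overexpressing against eGFP control for the 26 tested genes (points, edgeR), grouped by role. Bars are 95% intervals of 1.96 SE to each side, not adjusted over genes. Those of HSD17B7 (0.0052 to 0.5701) and STARD4 (-0.4828 to -0.0221) keep 1 sign, though neither gene passed. Filled points passed an adjusted p of 0.05, dashed lines are group medians (-0.815, -0.314 and -0.576 from top to bottom), the grey band holds the middle 50% of all tested genes (-0.311 to 0.363), and dotted lines mark 2-fold. INSIG1 stands furthest to the left and TM7SF2 furthest to the right.

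SREBPs act together with the CCAAT-binding factor NF-Y at many of these promoters, so the promoter windows of the genes (250 bases before to 50 after each RefSeq start, GRCh38.p14) were searched for 3 motifs on both strands. A window was held for 25 of the 28 genes, all but SQLE, FDFT1 and FASN. CCAAT, the NF-Y box, was found in 20 of the 25 genes (80%), against 39.7% of 27305 genes with a window and 43.2% of 7990 tested genes with one. At least 2 boxes in 1 window were found in 14 of the 25 (56%), against 12.9% of all genes and 16.6% of tested genes, and boxes on opposite strands can share bases, as in IDI1. By role, 13 of 15 sterol enzymes, 3 of 5 regulators and transport genes and 4 of 5 fatty acid genes held a box. The following 30-base stretches show the box (capitals, CCAAT or its complement ATTGG) before a RefSeq start of genes that fell by large and small amounts and of TM7SF2, which rose. They run 5′ to 3′ on the gene's strand.
INSIG1: cgccggcctcccATTGGttgcggccgcctc
EBP: cttcgcttcaccATTGGctcgctccgtaag
FDPS: tcccgcgggcacATTGGgagttgtagtcta
NSDHL: cgccgagctgggCCAATcctcttggtggag
SCD: aattcccttcggCCAATgacgagccggagt
HMGCS1: ctaccggccgcgATTGGctgtgggagccac
TM7SF2: ccccgagcgccgATTGGctggtgtgctggg
SREBF2: cttcgctcgcccATTGGctgagatgagcct
The stretches lie at chr7:155297696-155297725 (plus strand) for INSIG1, chrX:48521766-48521795 (plus) for EBP, chr1:155308803-155308832 (plus) for FDPS, chrX:152830967-152830996 (plus) for NSDHL, chr10:100347035-100347064 (plus) for SCD, chr5:43313495-43313524 (minus) for HMGCS1, chr11:65111786-65111815 (plus) for TM7SF2 and chr22:41832987-41833016 (plus) for SREBF2. The box began 30 bases before the start in EBP, 51 in FDPS, 74 in TM7SF2, 84 in NSDHL, 100 in HMGCS1, 106 in SREBF2, 170 in INSIG1 and 186 in SCD. RefSeq starts differ from the outermost starts of the deposited gene models, so the stretches of EBP, FDPS and NSDHL lie inside the gene as counted and that of HMGCS1 lies partly inside, whereas those of INSIG1, SCD, TM7SF2 and SREBF2 lie outside. The TM7SF2 and SREBF2 stretches are still exonic in other counted genes, VPS51 or AP003068.9 for TM7SF2 and RP5-821D11.7 for SREBF2.

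The core of the sterol regulatory element, searched as TCACNCCAC, was found in SREBF2 alone, 1 of 25 genes (4%) against 1.39% of all genes and 1.54% of tested genes with a window. The E-box CACGTG was found in 4 of the 25 (16%), SCAP, INSIG1, SC5D and LSS, against 8.77% of all genes and 13.2% of tested genes, a share near that of the tested genes. The matches in SREBF2 and INSIG1, a regulator and its inhibitor, are shown in capitals.
SREBF2: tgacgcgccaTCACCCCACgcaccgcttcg
INSIG1: gccgggcaggctCACGTGatgcgggccccg
These lie at chr22:41832962-41832991 and chr7:155297811-155297840, both on the plus strand, 133 and 55 bases before the RefSeq start. The INSIG1 stretch lies inside the gene as counted, whose deposited start is further out. The SREBF2 stretch lies outside SREBF2 as counted and is exonic in RP5-821D11.7. The 19 tested genes with an NF-Y box had a median log2 fold change of -0.576 and the 14 with 2 or more had -0.639, beside -0.233 for the 4 tested genes with none. SQLE, FDFT1 and FASN, which had no window, entered none of these medians. The ranges overlapped, from -2.16 to 0.59 with a box and from -0.91 to 0.04 without, and the difference was not tested. A match describes letters in a window and shows no binding, and a window without a match says nothing of the factor.

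INSIG1, the sterol sensor that retains SCAP in the endoplasmic reticulum, fell most. INSIG1 (chromosome 7, 155297776 to 155310235, plus strand) had 2144 and 2148 counts in the eGFP control libraries and 487 and 489 in the VIRMA-overexpressing libraries, or 25.7 ± 0.0798 against 5.77 ± 0.115 CPM (SD, n = 2). The groups lay far apart and the replicates were nearly equal. INSIG1 fell by 2.16 on the log2 scale (SE 0.0823, adjusted p 1.33e-22, edgeR), a change of -77.6%, and only 0.139% of tested genes had a lower or equal log2 fold change.

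The genes for the SREBPs themselves fell by less than 2-fold. SREBF1, which encodes the SREBP forms best known for fatty acid genes, stood at 1063 and 1043 CPM in the eGFP control libraries and at 788 and 815 CPM in the VIRMA-overexpressing libraries. SREBF1 fell by 0.39 on the log2 scale (SE 0.0269, adjusted p 2.28e-15, edgeR), and in mean RPKM it was the third highest of the 28 genes in both groups. SREBF2, which encodes the form best known for sterol genes, went from 216.9 and 211.3 CPM to 167.9 and 176.5 CPM and fell by 0.31 (SE 0.0331, adjusted p 1.71e-10, edgeR). Both falls were small beside that of INSIG1, and the groups did not overlap for either gene. SREBF1 shares 556 exonic bases with RAI1 on the other strand, and whether the counting used strand is not stated, so reads of such pairs cannot be assigned with certainty. SREBF2 shares 280 exonic bases (3.71% of its length) with RP5-821D11.7 on the other strand. That gene had 666 and 643 counts in the eGFP control libraries and 496 and 498 in the VIRMA-overexpressing libraries. In all, 11 of the 28 genes have such an overlap on the other strand, among them MVK with MMAB.

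SCAP, the escort, did not pass. SCAP had 82.6 and 77.1 CPM in the eGFP control libraries and 82.0 and 82.2 CPM in the VIRMA-overexpressing libraries, so the groups overlapped. The log2 fold change was 0.04 (95% interval -0.04 to 0.12, edgeR adjusted p 0.377). It was past the threshold upward with upper-quartile factors (0.11, edgeR adjusted p 0.013) and library totals (0.12, edgeR adjusted p 0.00777), and its sign turned with the edgeR filterByExpr filter and without eGFP control replicate 2. STARD4, a carrier of cholesterol between membranes, had 7.77 and 7.17 CPM in the eGFP control libraries and 6.40 and 6.14 CPM in the VIRMA-overexpressing libraries. The groups did not overlap, but the log2 fold change of -0.25 (SE 0.118) missed the threshold (edgeR adjusted p 0.0543). With filterByExpr the STARD4 value was -0.30 (edgeR adjusted p 0.0313), without eGFP control replicate 2 it was -0.31 (edgeR adjusted p 0.0482), and with the replicate number as a block it was -0.25 (edgeR adjusted p 0.0464).

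**Figure D2:**
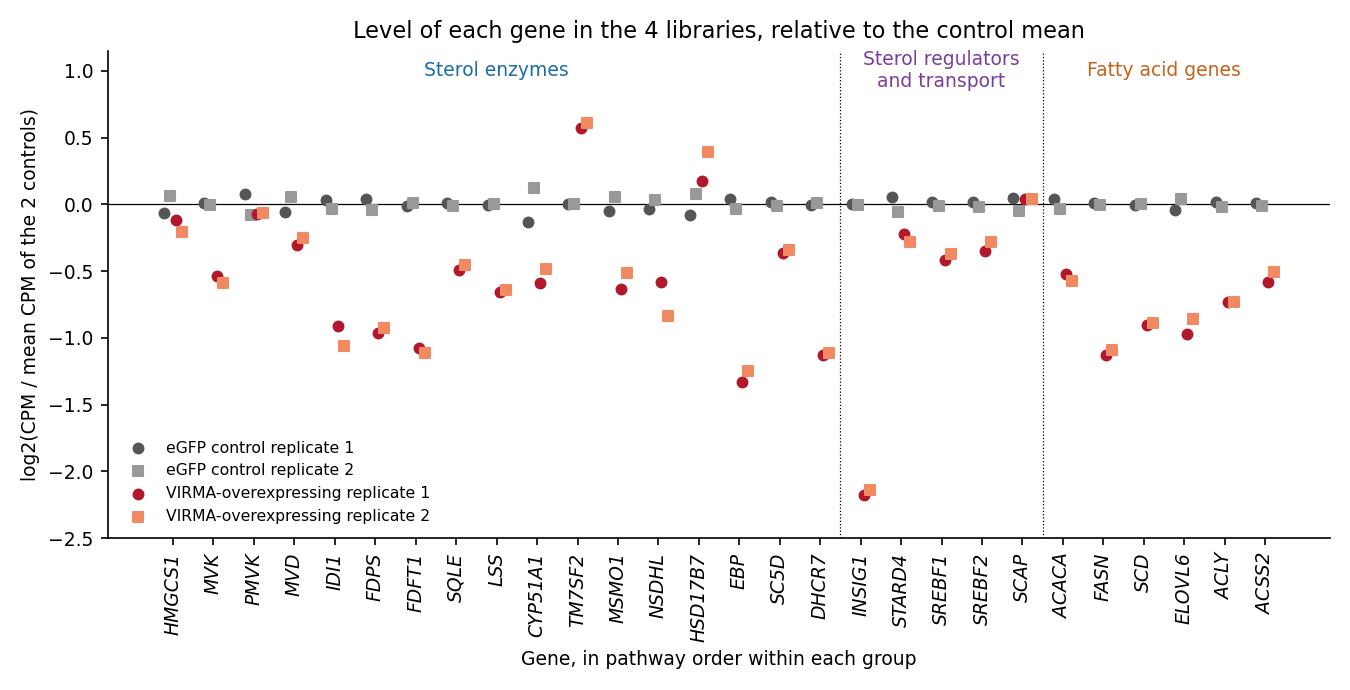
Level of each of the 28 genes in the 4 libraries, as log2 of the CPM over the mean CPM of the 2 controls, in pathway order within each role. Grey symbols are eGFP control libraries and red symbols VIRMA-overexpressing libraries, with circles for replicate 1 and squares for replicate 2. The red symbols lie below both grey ones for most genes, lowest for INSIG1, and above them for TM7SF2 and HSD17B7.

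Of the 28 genes, those of the early sterol pathway, from acetyl-CoA units to mevalonate and its phosphates, held 3 falls and 1 gene that did not pass. HMGCS1, which makes HMG-CoA, had 20.5 and 22.4 CPM in the eGFP control libraries and 19.8 and 18.5 CPM in the VIRMA-overexpressing libraries. HMGCS1 fell by 0.16 on the log2 scale (SE 0.0704, adjusted p 0.0382, edgeR), the smallest fall that passed among the 28 genes. The call was lost with DESeq2 (adjusted p 0.0765), upper-quartile factors (edgeR adjusted p 0.25) and library totals (edgeR adjusted p 0.32), and without eGFP control replicate 2 (edgeR adjusted p 0.333) or VIRMA-overexpressing replicate 2 (edgeR adjusted p 0.223). The kinase that follows moved further. MVK, mevalonate kinase, went from 88.1 and 87.2 CPM to 60.5 and 58.1 CPM and fell by 0.56 (SE 0.0399, adjusted p 6.59e-15, edgeR). PMVK, phosphomevalonate kinase, had 43.95 and 39.42 CPM in the eGFP control libraries and 39.6 and 39.8 CPM in the VIRMA-overexpressing libraries, overlapping groups, with a log2 fold change of -0.07 (95% interval -0.17 to 0.03, edgeR adjusted p 0.224). Without eGFP control replicate 2 the PMVK value was -0.15 (edgeR adjusted p 0.0257), and its sign turned without eGFP control replicate 1 and with library totals. MVD, the decarboxylase that yields the isoprenoid unit, went from 33.8 and 36.6 CPM to 28.4 and 29.5 CPM and fell by 0.28 (SE 0.0579, adjusted p 5.84e-05, edgeR).

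The steps that join isoprenoid units into squalene all fell, with log2 fold changes close to -1. IDI1, which interconverts the isoprenoid building blocks, had 37.8 and 36.2 CPM in the eGFP control libraries and 19.7 and 17.7 CPM in the VIRMA-overexpressing libraries. IDI1 fell by 0.99 on the log2 scale (SE 0.0635, adjusted p 4.8e-16, edgeR), just short of 2-fold. IDI1 was past 2-fold with filterByExpr (-1.03), without a filter (-1.02), without eGFP control replicate 2 (-1.02) and without VIRMA-overexpressing replicate 1 (-1.06). FDPS, farnesyl diphosphate synthase, went from 87.5 and 82.4 CPM to 43.5 and 44.6 CPM and fell by 0.95 (SE 0.0428, adjusted p 1.96e-20, edgeR). FDPS shares 693 exonic bases (18.6% of its length) with RUSC1-AS1 on the other strand, which had 926 to 1134 counts a library. FDFT1, squalene synthase and the first enzyme committed to sterols, went from 91.2 and 92.9 CPM to 43.5 and 42.5 CPM and fell by 1.10 (SE 0.0411, adjusted p 7.83e-23, edgeR), a change of -53.2%.

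Squalene is then oxidised and closed into a ring, and both enzymes of these steps fell by less than 2-fold. SQLE, squalene epoxidase, had 154.6 and 152.6 CPM in the eGFP control libraries and 109.1 and 112.3 CPM in the VIRMA-overexpressing libraries, a fall of 0.47 on the log2 scale (SE 0.0343, adjusted p 1.31e-14, edgeR). LSS, lanosterol synthase, went from 70.0 and 70.5 CPM to 44.6 and 45.0 CPM and fell by 0.65 (SE 0.0428, adjusted p 9.04e-16, edgeR). For both, the distance between the groups was many times the distance between replicates.

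The steps after lanosterol held the deepest falls among the enzymes and the single rise. EBP, the sterol isomerase (chromosome X, 48521158 to 48528716, plus strand), had 94.2 and 89.4 CPM in the eGFP control libraries and 36.5 and 38.6 CPM in the VIRMA-overexpressing libraries. EBP fell by 1.29 on the log2 scale (SE 0.0439, adjusted p 4.31e-24, edgeR), a change of -59.1%. DHCR7, a reductase at the end of the pathway (chromosome 11, 71428193 to 71452868, minus strand), went from 194.6 and 196.3 CPM to 89.5 and 90.3 CPM and fell by 1.12 (SE 0.0338, adjusted p 1.22e-25, edgeR). By mean RPKM, DHCR7 and EBP were the highest of the sterol enzymes in the controls, at 47.0 and 38.1, and in the VIRMA-overexpressing cells, at 21.6 and 15.6, they lay below PMVK, TM7SF2 and SQLE.

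Of the 3 tested enzymes that remove methyl groups between lanosterol and these steps, MSMO1 and NSDHL fell, and HSD17B7, described further on, did not pass. MSMO1, a methylsterol oxidase, went from 34.9 and 37.5 CPM to 23.3 and 25.3 CPM and fell by 0.58 on the log2 scale (SE 0.0607, adjusted p 1.77e-10, edgeR). NSDHL, a sterol dehydrogenase of the same complex, went from 28.8 and 30.1 CPM to 19.6 and 16.5 CPM and fell by 0.70 (SE 0.0708, adjusted p 6.17e-11, edgeR). The VIRMA-overexpressing replicates of NSDHL lay further apart than those of most members, but both were below the controls.

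TM7SF2, a sterol reductase that acts after lanosterol, was the 1 gene of the 28 that passed upward. TM7SF2 (chromosome 11, 65111845 to 65116384, plus strand) had 60.7 and 60.8 CPM in the eGFP control libraries and 90.3 and 92.9 CPM in the VIRMA-overexpressing libraries. It rose by 0.59 on the log2 scale (SE 0.0393, adjusted p 1.09e-15, edgeR), a change of 50.7%. TM7SF2 shares 16 exonic bases (0.469% of its length) with VPS51 on the same strand, which had 8765 and 8907 counts in the eGFP control libraries and 8632 and 8244 in the VIRMA-overexpressing libraries. LBR, a nuclear membrane protein with the same reductase activity and no member of the 28, was named after its values were seen. It went from 34.4 and 34.4 CPM to 24.7 and 21.7 CPM and fell by 0.57 (SE 0.063, adjusted p 6.49e-10, edgeR).

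The 3 remaining sterol enzymes were expressed at low levels. HSD17B7, a ketosteroid reductase, had 4.02 and 4.48 CPM in the eGFP control libraries and 4.79 and 5.59 CPM in the VIRMA-overexpressing libraries, which did not overlap. Its log2 fold change was 0.29 (SE 0.144, adjusted p 0.0736, edgeR), and it passed with upper-quartile factors (0.36, edgeR adjusted p 0.026) and library totals (0.37, edgeR adjusted p 0.0217). The near-identical pseudogene HSD17B7P2 had 100 and 72 counts in the eGFP control libraries and 191 and 166 in the VIRMA-overexpressing libraries, beside 334 and 375 against 410 and 467 for HSD17B7, so the split of reads between them is uncertain. CYP51A1, the lanosterol demethylase, had 276 and 331 counts in the eGFP control libraries and 207 and 217 in the VIRMA-overexpressing libraries, below the RPKM filter. Without a filter it fell by 0.57 (SE 0.181, adjusted p 0.00629, edgeR). Its row shares 78.8% of its length with LRRD1 on the same strand, a gene with 0 to 9 counts a library. SC5D, a sterol desaturase, had 457 and 451 counts against 362 and 358 and without a filter fell by 0.39 (SE 0.142, adjusted p 0.0228, edgeR).

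The fatty acid genes fell together, and FASN carried most of their RNA. FASN, fatty acid synthase (chromosome 17, 82078333 to 82098332, minus strand), was counted 547894 and 546749 times in the eGFP control libraries and 257441 and 257049 in the VIRMA-overexpressing libraries. On the CPM scale it went from 6588 and 6533 to 3006 and 3075, or 6560 ± 38.7 against 3041 ± 48.4 (SD, n = 2). FASN fell by 1.11 on the log2 scale (SE 0.0213, adjusted p 1.34e-31, edgeR), a change of -53.6%, and it was the highest of the 28 genes in mean RPKM in both groups, at 701 and 325.

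The 3 enzymes that feed FASN with acetyl-CoA and malonyl-CoA fell as well, each by less than 2-fold. ACLY, which cleaves citrate to cytosolic acetyl-CoA, went from 553.3 and 540.7 CPM to 329.0 and 328.7 CPM and fell by 0.73 on the log2 scale (SE 0.029, adjusted p 3.44e-22, edgeR). ACSS2, which makes acetyl-CoA from acetate, went from 106.9 and 105.3 CPM to 70.8 and 74.8 CPM and fell by 0.54 (SE 0.0386, adjusted p 7.22e-15, edgeR). ACACA, acetyl-CoA carboxylase and the supplier of malonyl-CoA, went from 48.9 and 46.4 CPM to 33.2 and 32.1 CPM and fell by 0.55 (SE 0.0509, adjusted p 8.76e-12, edgeR). None of the 3 had overlapping groups.

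Both enzymes that act on the product of FASN fell. SCD, the desaturase that makes monounsaturated fatty acids, had 1044 and 1050 CPM in the eGFP control libraries and 560.6 and 564.0 CPM in the VIRMA-overexpressing libraries, a fall of 0.90 on the log2 scale (SE 0.0267, adjusted p 8.31e-26, edgeR). ELOVL6, an elongase of saturated chains, went from 54.3 and 57.5 CPM to 28.5 and 30.9 CPM and fell by 0.91 (SE 0.0513, adjusted p 1.01e-17, edgeR).

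Summed over the 28 genes, the level went from 10840 and 10740 CPM in the controls to 5758 and 5875 CPM in the VIRMA-overexpressing libraries, a ratio of 0.539. As a share of all counts this was 1.06% and 1.04% against 0.594% and 0.603%. FASN alone made up 60.8% of the summed level in the eGFP control libraries and 52.3% in the VIRMA-overexpressing cells. The 6 fatty acid genes summed to 8395 and 8333 CPM against 4029 and 4105 CPM (ratio 0.486), and without FASN the other 5 summed to 1807 and 1800 CPM against 1022 and 1030 CPM (ratio 0.569). The sterol enzymes stood at a ratio of 0.649 and the regulators and transport genes, of which SREBF1 was the bulk, at 0.774.

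**Figure D3:**
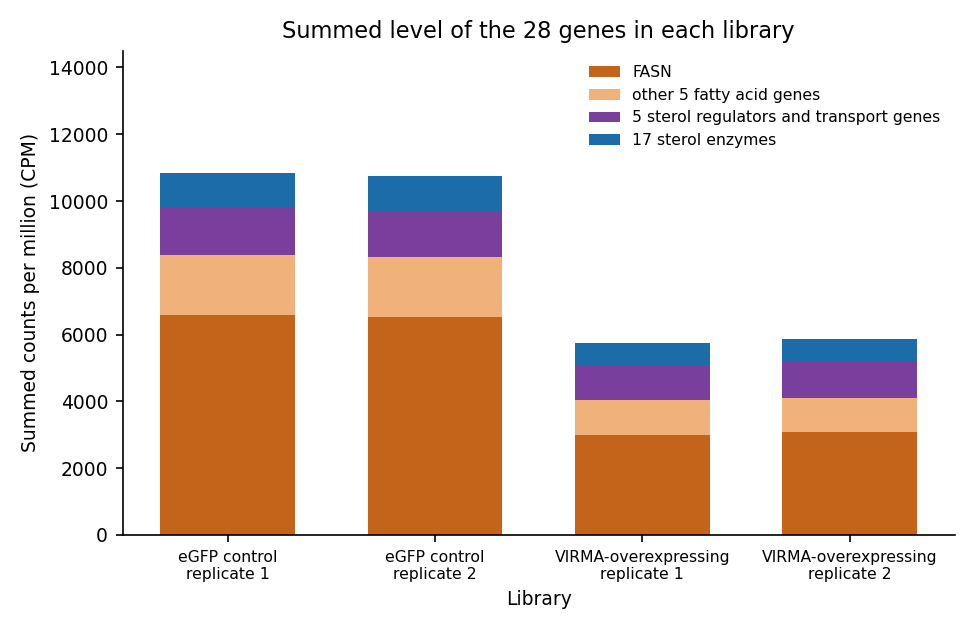
Summed level of the 28 genes in each library (CPM, stacked bars from 0), split into FASN, the other 5 fatty acid genes, the 5 sterol regulators and transport genes and the 17 sterol enzymes. The bars reach 10840 and 10740 CPM in the eGFP control libraries and 5758 and 5875 CPM in the VIRMA-overexpressing libraries, and FASN is the largest piece of each.

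The genes covered a wide range of levels. In mean control RPKM the genes ran from 0.893 for CYP51A1 to 701 for FASN. FASN, SCD, SREBF1 and ACLY took the first 4 places in both groups. Across the 26 tested genes, Spearman's rho between control RPKM and log2 fold change was -0.307, a description across genes of the same libraries, which are not independent replicates. INSIG1, the gene with the deepest fall, stood 22nd of 28 in the controls at 7.05 RPKM and 24th in the VIRMA-overexpressing cells at 1.58 RPKM. Among the 4 highest genes, SREBF1 changed least.

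**Figure D4:**
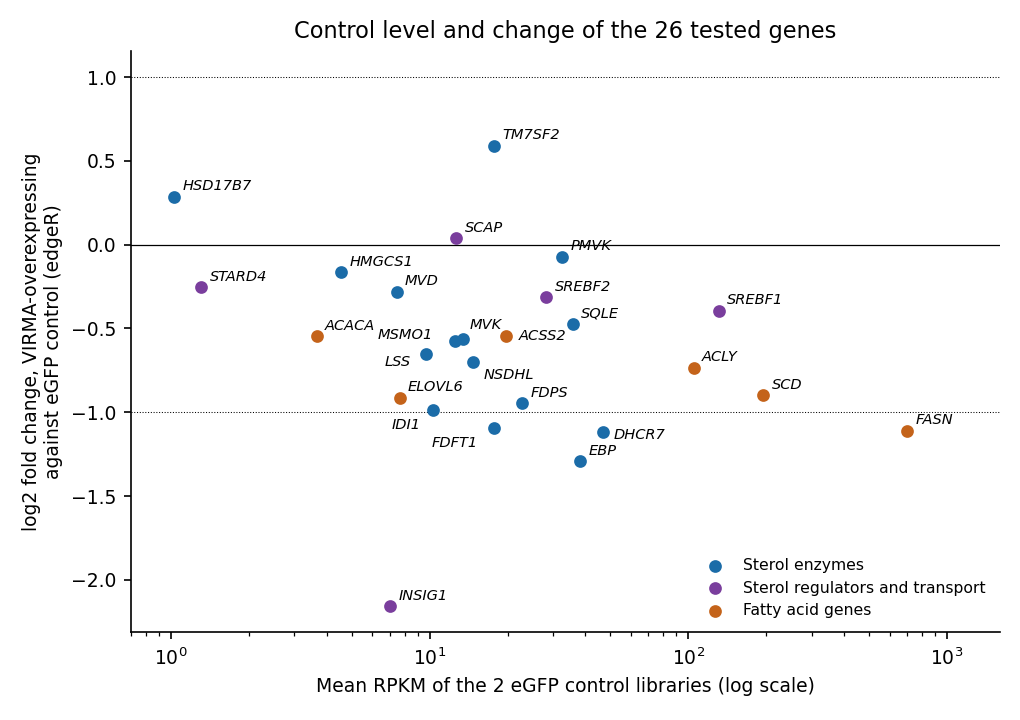
log2 fold change against the mean RPKM of the 2 eGFP control libraries (log axis) for the 26 tested genes, coloured by role, with dotted lines at 2-fold. FASN lies at the right at 701 RPKM and -1.11, INSIG1 at the bottom at 7.05 RPKM and -2.16, and TM7SF2 at the top at 0.59.

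Further genes of the same pathways were counted in 3 lists. Of 19 other genes of sterol synthesis and sensing, 18 were tested, of which 12 were lower, 3 higher and 3 did not pass, with a median log2 fold change of -0.319. These are 66.7% lower and 16.7% higher, beside 35.9% and 35.1% of all tested genes. Past 2-fold were ACAT2 and TMEM97. ACAT2, the cytosolic thiolase that makes the acetoacetyl-CoA used by HMGCS1, went from 21.5 and 20.6 CPM to 5.90 and 4.92 CPM and fell by 1.96 (SE 0.0935, adjusted p 9.14e-20, edgeR). TMEM97, a sterol-responsive membrane protein that binds the cholesterol transporter NPC1, went from 47.1 and 50.3 CPM to 18.85 and 20.01 CPM and fell by 1.33 (SE 0.0576, adjusted p 5.72e-21, edgeR). INSIG2, the second INSIG gene, was named after its values were seen. It had 8.56 and 9.13 CPM in the eGFP control libraries and 11.98 and 11.72 CPM in the VIRMA-overexpressing libraries, and rose by 0.42 (SE 0.0952, adjusted p 1.85e-04, edgeR), where INSIG1 fell.

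Of 21 genes that move, store or export cholesterol, 17 were tested, of which 7 were lower, 5 higher and 5 did not pass, with a median log2 fold change of -0.053. These shares, 41.2% lower and 29.4% higher, were near the 35.9% and 35.1% of all tested genes. None passed 2-fold, and the 2 largest changes were both downward. SOAT1, which esterifies cholesterol for storage, went from 10.98 and 11.33 CPM to 5.14 and 6.10 CPM and fell by 0.99 (SE 0.111, adjusted p 7.49e-10, edgeR). NPC2, which carries cholesterol out of lysosomes, went from 62.9 and 63.0 CPM to 42.3 and 41.1 CPM and fell by 0.59 (SE 0.0446, adjusted p 3.32e-14, edgeR).

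Of 32 other genes of fatty acid and glycerolipid synthesis, 23 were tested, of which 14 were lower, 6 higher and 3 did not pass, with a median log2 fold change of -0.323. These are 60.9% lower and 26.1% higher, beside 35.9% and 35.1% of all tested genes. THRSP, a small protein linked to the control of lipogenesis, went from 6.59 and 5.87 CPM to 1.82 and 1.59 CPM and fell by 1.87 (SE 0.165, adjusted p 2.25e-12, edgeR). HACD3, a dehydratase of very long chain fatty acid elongation, went from 70.3 and 66.4 CPM to 34.4 and 35.5 CPM and fell by 0.97 (SE 0.0465, adjusted p 1.14e-19, edgeR).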

How the data were processed

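Poly-A RNA of SKBR3 cells was sequenced in 2 eGFP control and 2 VIRMA-overexpressing libraries with a stranded kit. Per the submitters' processing notes and the study's methods, the authors trimmed reads with Trimmomatic 0.39, aligned them to hg38 with STAR 2.5.2a and counted them with featureCounts. The deposited table gives raw, unnormalized counts for each gene beside its exon coordinates and exonic length. The strand setting and the treatment of reads with several alignments are not given in the sources used here. Columns with a number where the condition would stand were assigned to the VIRMA-overexpressing libraries as the remaining group, with VIRMA as the check.

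RPKM was computed from counts, library totals and exonic lengths, and 12205 genes exceeded 1 in 2 or more libraries. These were fitted in edgeR 4.0.16 (R 4.3.3; TMM, quasi-likelihood, no covariate beside group), with Benjamini-Hochberg adjustment over all of them. Thresholds were an adjusted p of 0.05 and a log2 fold change of 1. The standard error is the log2 fold change divided by the square root of F. The 95% intervals are 1.96 standard errors to each side (normal quantile), without adjustment over genes. The common biological coefficient of variation was 3.93%, and replicates differed by more than sampling noise (chi-square per degree of freedom 5.08 and 4.31). With 2 libraries against 2, an exact permutation test of a gene cannot go below 0.333. The fit was tested on simulated data in which few genes changed, unlike these data, so that run does not test the present setting.

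The genes and lists were chosen with earlier results of these data known. All 28 genes are named, and of the other lists those past both thresholds, or the 2 largest changes where fewer than 2 passed both. Alternatives were DESeq2 1.42.0, 3 other scalings, 2 other filters, a replicate block and leaving out each library. The positions of all 28 genes overlap GENCODE v44 (GRCh38).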

Additional observations from a re-analysis of the deposited data

How the results depend on the processing

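The 21 falls and the rise of TM7SF2 kept their direction under every alternative run, and all but HMGCS1 kept their call. With upper-quartile factors and with library totals, 3 of the 26 tested genes were higher at the adjusted p (TM7SF2, HSD17B7 and SCAP). By the same call, 4992 and 5092 of all 12205 tested genes were higher in these 2 settings, against 4282 in the main fit. The medians of the sterol enzymes, the regulators and transport genes and the fatty acid genes were -0.505, -0.243 and -0.744 with upper-quartile factors and -0.492, -0.231 and -0.732 with library totals, settings that moved the median of the tested genes by 0.072 and 0.083. They were -0.607, -0.358 and -0.859 with the edgeR filterByExpr filter and -0.598, -0.349 and -0.85 without a filter. Leaving out 1 library at a time gave -0.632 to -0.572 for the sterol enzymes, -0.351 to -0.283 for the regulators and transport genes and -0.817 to -0.795 for the fatty acid genes. PMVK turned to 0.0116 with library totals and, leaving out 1 library at a time, ran from -0.1485 (without eGFP control replicate 2) to 0.0043 (without eGFP control replicate 1). SCAP turned to -0.0036 with filterByExpr and ran from -0.0092 (without eGFP control replicate 2) to 0.0859 (without eGFP control replicate 1). The cause was not tested. Over all genes, 552 were higher and 358 lower past both thresholds, against 1044 and 808 of 20568 with filterByExpr and 1137 and 820 of 33976 without a filter, where more genes of low counts enter.

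The deviations of same-numbered libraries from their group means were weakly correlated (0.0755 over 12205 genes). With 2 libraries a group, this cannot settle whether the numbers mark pairs, and the main fit treated the libraries as unpaired. With the replicate number as a block, 22 of the 26 tested genes were lower and 1 higher at the adjusted p, with STARD4 added. By the same call, 4454 of all 12205 tested genes were lower and 4358 higher. Past both thresholds, 541 of all genes were higher and 356 lower.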

Other observations

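Of the 32 other genes of fatty acid and glycerolipid synthesis, 9 were below the RPKM filter and were not in the main fit. FADS1, a desaturase of polyunsaturated fatty acids, had 119 and 134 counts in the eGFP control libraries and 63 and 43 in the VIRMA-overexpressing libraries. FADS2, the desaturase that acts before it, had 156 and 175 counts against 45 and 62. ACACB, the mitochondrial acetyl-CoA carboxylase, had 736 and 719 counts against 381 and 423. GPAM, which starts glycerolipid synthesis, had 759 and 923 counts against 753 and 684, and ACSL4, an acyl-CoA synthetase, had 37 and 45 against 22 and 31. The elongase ELOVL3 had 35 and 36 counts against 6 and 14. DGAT2, which makes triglycerides, went the other way, with 297 and 167 counts against 352 and 326. ELOVL2 had 18 and 33 counts against 26 and 24, and SCD5 had 0 in all 4 libraries. The VIRMA-overexpressing libraries thus lay below both controls for 6 of the 9 genes and above both for DGAT2. The 41.6% of all tested genes with both below covers only genes past the RPKM filter, so it is no background for these. Without a filter, FADS1, FADS2, ACACB, ELOVL3 and GPAM were lower and DGAT2 higher at an edgeR adjusted p below 0.05. ACSL4 (edgeR adjusted p 0.358) and ELOVL2 (edgeR adjusted p 0.941) did not pass. By the same call, 5204 of 33976 genes were lower and 4883 higher.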
